A study of Mus musculus with 12 samples.

Results

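Type 2 conventional dendritic cell markers are described here through 9 genes chosen by name: Cd209a, Clec4a4, Mgl2, Clec10a, Sirpa, Esam, Cd4, Itgam and Notch2. All 9 symbols were among the 28188 in the count table. RNA was sequenced as poly(A)-selected libraries from dendritic cells and B cells isolated from mouse spleen, 3 libraries in each of 4 groups. All mice were 12 weeks old. The groups were NOD.Idd2 dendritic cells, NOD dendritic cells, NOD.Idd2 B cells and NOD B cells. NOD mice develop autoimmune diabetes spontaneously. NOD.Idd2 mice are NOD mice that carry the Idd2 diabetes locus of B10 origin, on chromosome 9. The labels name no treatment, and do not say whether a library came from 1 mouse or from pooled mice, and the p-values can measure no more than the spread between libraries. Bulk dendritic cell libraries hold all dendritic cell types of the isolate together, so fewer cells of a type and less RNA per cell cannot be told apart.

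Conventional dendritic cells of the spleen fall into type 1 cells, which take up dead cells and present their antigens to CD8 T cells, and type 2 cells, which mainly present antigen to CD4 T cells. Type 2 cells of the mouse spleen are commonly recognised by SIRP alpha, CD11b, CD4, ESAM and DCIR2 on their surface. Notch2 signalling is needed for the CD4+ ESAM-high cells among them, and other type 2 cells carry more lectins such as CD301b and more genes shared with monocytes. The 9 genes encode 4 C-type lectins that bind sugars or carry inhibitory signals (Cd209a, Clec4a4, Mgl2 and Clec10a), the CD47 receptor SIRP alpha (Sirpa), the adhesion molecules ESAM (Esam) and CD11b (Itgam), the MHC class II coreceptor CD4 (Cd4) and the receptor Notch2 (Notch2).

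Sequencing depth in dendritic cells was 22769062, 30337812 and 8663421 counts for NOD.Idd2, and 24627488 to 26811142 counts for NOD, so the third NOD.Idd2 library was the shallowest. Depth in B cells was 40344883 to 44632276 counts. Libraries of 1 group differed from each other by more than sampling noise in every pair. CPM values are counts scaled to library size with TMM factors, given below per library or as mean ± SD over n = 3 libraries. Dendritic cell libraries carried the general markers Itgax (2033 ± 94.5 CPM in NOD.Idd2 and 2127 ± 148 in NOD) and Flt3 as well as type 1 markers. All 6 dendritic cell libraries came from male and all 6 B cell libraries from female tissue by their transcripts: Xist had 1 to 4 counts in dendritic cell libraries and 1564 to 2088 CPM in B cell libraries, and 4 Y-linked genes had 0 counts in B cells. Every difference between the cell types is therefore also a difference between sexes, and the 2 cannot be told apart.

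Of the 9 genes, 2 lie next to each other on chromosome 11 and share sequence. On GRCm38, Mgl2 spans chr11:70130329-70137550 and Clec10a chr11:70156197-70170834. Of the 50-base windows in annotated Mgl2 transcripts, 12.2% also occur in Clec10a, against 8.49% of Clec10a windows found in Mgl2. The longest run common to both is 183 bases of coding sequence, shown because reads inside it cannot be assigned to 1 of the 2 lectins from their letters alone.
Mgl2 and Clec10a, shared coding run: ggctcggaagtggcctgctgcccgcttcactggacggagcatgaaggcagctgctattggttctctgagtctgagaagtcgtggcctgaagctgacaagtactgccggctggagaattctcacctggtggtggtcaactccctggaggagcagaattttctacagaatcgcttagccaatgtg

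Clec4a4 (chr6:122990367-123024105) shares 15.7% of its windows with the neighbouring lectin Clec4a2. Itgam (chr7:128062640-128118491) shares 66.3% with Gm49368, a protein-coding model on the same strand that starts inside Itgam and ends beyond it. Gm49368 itself had 0 to 4 counts per library. How the authors counted reads that fit both models is not given in the sources used here, so the levels of Itgam are uncertain. Cd209a (chr8:3743397-3748984, minus strand), Sirpa (chr2:129592835-129632228), Esam (chr9:37528078-37538319) and Cd4 (chr6:124864692-124888221, minus strand) share no 50-base window with any other annotated gene. Notch2 (chr3:98013527-98150361) shares 3.76%, all of it with an unclassified transcript model inside the gene.

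Upstream sequence was at hand for 4 of the 9 genes, from RefSeq on GRCm38.p6, as the 250 bases before the start of RefSeq's gene. The gene spans above are GENCODE's, and for Mgl2 and Notch2 the last bases of the window lie inside them. All 4 are shown: Mgl2, Cd209a and Itgam, which are 3 of the 4 genes whose NOD.Idd2 dendritic cell libraries all lay above the NOD libraries, and Notch2, the marker with the highest level in B cells. Capitals mark GAGGAA or its reverse complement TTCCTC, the core that the myeloid factor PU.1 binds.
Mgl2, chr11:70130107-70130356 (plus strand): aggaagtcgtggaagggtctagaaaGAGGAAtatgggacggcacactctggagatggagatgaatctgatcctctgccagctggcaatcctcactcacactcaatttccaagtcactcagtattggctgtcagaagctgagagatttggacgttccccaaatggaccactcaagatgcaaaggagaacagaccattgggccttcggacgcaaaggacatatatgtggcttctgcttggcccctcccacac
Cd209a, chr8:3748985-3749234 (minus strand): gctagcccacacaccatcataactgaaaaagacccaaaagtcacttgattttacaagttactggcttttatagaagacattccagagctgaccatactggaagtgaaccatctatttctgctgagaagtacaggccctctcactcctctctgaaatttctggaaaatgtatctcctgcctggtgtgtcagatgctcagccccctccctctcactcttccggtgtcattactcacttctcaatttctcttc
Itgam, chr7:128062390-128062639 (plus strand): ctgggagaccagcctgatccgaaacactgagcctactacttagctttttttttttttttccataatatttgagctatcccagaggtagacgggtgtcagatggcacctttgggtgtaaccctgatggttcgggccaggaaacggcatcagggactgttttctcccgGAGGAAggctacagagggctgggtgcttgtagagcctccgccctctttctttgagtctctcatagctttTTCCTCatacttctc
Notch2, chr3:98013288-98013537 (plus strand): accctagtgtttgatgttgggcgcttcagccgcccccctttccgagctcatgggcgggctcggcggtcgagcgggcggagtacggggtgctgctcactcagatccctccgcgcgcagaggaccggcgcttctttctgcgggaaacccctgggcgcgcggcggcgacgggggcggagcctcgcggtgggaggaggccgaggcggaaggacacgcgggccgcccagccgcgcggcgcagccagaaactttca

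The Mgl2 sequence held the core once, 225 bases before the RefSeq start, and the Itgam sequence held it at 84 and at 15 bases before that start. Over all 32851 promoters of the table, 23.3% held it. The letters TGGGAA, read by the Notch partner RBPJ and present in 21.6% of promoters, were in none of the 4 windows on either strand. The GC content was 50.8% for Mgl2, 44.8% for Cd209a, 49.6% for Itgam and 72% for Notch2, against a median of 52.4% and quartiles of 45.2% and 61.2% over all promoters. The Notch2 sequence was thus above the upper quartile and the Cd209a sequence below the lower.

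In dendritic cells the strain comparison sets NOD.Idd2 against NOD libraries. An effect of the Idd2 locus cannot be told apart in it from any other difference between the strains. One of the 9 markers, the lectin Mgl2, was higher in NOD.Idd2 than in NOD dendritic cells. It encodes CD301b, a receptor for galactose-type sugars carried by a migratory kind of type 2 cell. Its CPM were 45.4, 50.5 and 42.3 in NOD.Idd2, against 30.9, 29.2 and 30.5 in NOD. All 3 NOD.Idd2 libraries stood clear of all 3 NOD libraries, and the NOD libraries lay within a narrow range. Mgl2 rose by a log2 fold change of 0.63 (SE 0.070, 1.55-fold, adjusted p = 0.00075, quasi-likelihood test in edgeR, Benjamini-Hochberg adjustment over 14441 genes). Over all genes tested 1.29% were called, 0.665% higher and 0.623% lower in NOD.Idd2. The 1 call among 9 markers is to be read against that share. The markers were chosen with earlier results of these data known, so that reading is no test. The median log2 fold change was 0.027 over the 9 markers and 0.00060 over all genes tested.

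Clec10a, which encodes the related sugar receptor CD301a, had 46.2, 50.4 and 44.2 CPM in NOD.Idd2, against 39.5, 24.6 and 31.8 CPM in NOD. The groups did not overlap, but the NOD libraries were spread far more widely than for Mgl2. The log2 fold change was 0.58 (SE 0.13) and the adjusted p was 0.0609 in the edgeR test, so Clec10a was not called. With 1 library left out, the adjusted p ran between 0.00197, without NOD replicate 1, the NOD library nearest to NOD.Idd2, and 0.340, without NOD.Idd2 replicate 2.

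Cd209a encodes a homologue of the human pathogen receptor DC-SIGN. It had 409, 436 and 372 CPM in NOD.Idd2, against 287, 359 and 339 CPM in NOD. The lowest NOD.Idd2 library was just above the highest NOD library. The log2 fold change was 0.32 (SE 0.077, adjusted p = 0.0757 in the edgeR test). With 1 library left out, the adjusted p ran between 0.0467, without NOD replicate 2, the NOD library nearest to NOD.Idd2, and 0.410, without NOD.Idd2 replicate 2. Clec4a4 encodes DCIR2, the inhibitory lectin bound by the 33D1 antibody. It had 122, 132 and 131 CPM in NOD.Idd2, against 130, 146 and 130 CPM in NOD, with overlapping groups and a log2 fold change of -0.06 (SE 0.061, adjusted p = 0.791). Of the 4 lectins, 3 had NOD.Idd2 libraries that all lay above NOD, and Clec4a4 did not. Over all genes tested 7.06% had NOD.Idd2 libraries that all lay above NOD. Only Mgl2 among the 4 lectins was called.

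**Figure D1:**
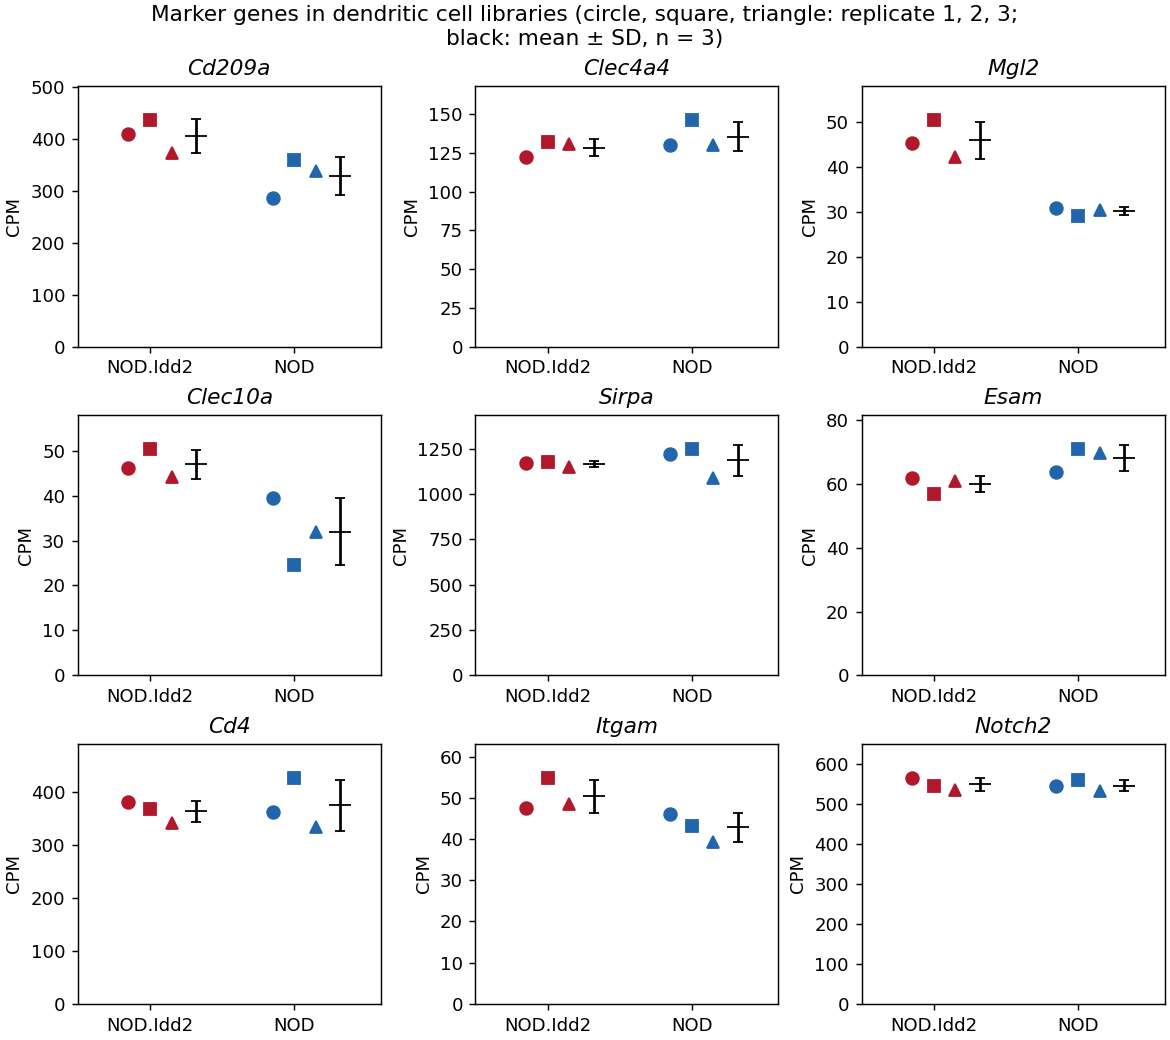
CPM of the 9 marker genes in dendritic cell libraries, 1 panel a gene, with NOD.Idd2 left of NOD, a symbol for each library and the mean ± SD in black. Mgl2 shows 3 NOD.Idd2 libraries at 42.3 to 50.5 CPM above 3 NOD libraries at 29.2 to 30.9, while Sirpa, Clec4a4, Cd4 and Notch2 overlap between strains.

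The receptors Sirpa and Notch2 and the coreceptor Cd4 showed no difference that passed the test. SIRP alpha sends an inhibitory signal when it binds CD47 on other cells. Sirpa was at 1153 to 1175 CPM in NOD.Idd2 dendritic cells and at 1091 to 1250 CPM in NOD dendritic cells (log2 -0.0075, SE 0.057, adjusted p = 0.978 in the edgeR test). The NOD.Idd2 libraries lay inside the NOD range. Cd4 had 381, 369 and 342 CPM in NOD.Idd2, against 363, 428 and 335 CPM in NOD (log2 -0.025, SE 0.078, adjusted p = 0.941). Notch2 had 566, 545 and 535 CPM in NOD.Idd2, against 545, 559 and 532 CPM in NOD (log2 0.027, SE 0.046, adjusted p = 0.886). For both genes the groups overlapped.

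The adhesion genes Itgam and Esam lay on opposite sides of 0, and neither passed the test. Itgam encodes the alpha chain of the integrin CD11b/CD18. It had 47.6, 54.9 and 48.6 CPM in NOD.Idd2, against 46.0, 43.2 and 39.2 CPM in NOD, and the groups did not overlap (log2 0.26, SE 0.077, adjusted p = 0.172 in the edgeR test). Esam encodes an immunoglobulin-type adhesion molecule of endothelium and of Notch2-dependent splenic dendritic cells. Esam had 61.9, 57.0 and 60.9 CPM in NOD.Idd2, against 63.6, 71.0 and 69.8 CPM in NOD. Each NOD.Idd2 library was below each NOD library, by a small margin at the nearest pair (log2 -0.17, SE 0.064, unadjusted p = 0.02, adjusted p = 0.307). Of all 14441 genes tested, 16.5% had groups that did not overlap, 7.06% with NOD.Idd2 above and 9.41% below. Among the 9 markers 5 did not overlap: Cd209a, Mgl2, Clec10a and Itgam above, and Esam below.

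Other cell types in the isolate were followed by their own markers, of which none of the monocyte, macrophage, neutrophil, T cell, natural killer cell, B cell, plasmacytoid or endothelial genes passed the test in dendritic cells. The summed level of 10 monocyte markers was 1040 to 1063 CPM in NOD.Idd2 and 846 to 1015 CPM in NOD, also without overlap, beside the higher levels of Mgl2, Clec10a and Cd209a. Of the 10 genes, 6 had a log2 fold change above 0, with a median of 0.072, and the highest in level were Csf1r and Ccr2. Ccr2, a chemokine receptor of monocytes and of some type 2 dendritic cells, had 355, 365 and 362 CPM in NOD.Idd2, against 306, 191 and 242 CPM in NOD (log2 0.56, SE 0.12, adjusted p = 0.0515 in the edgeR test). Csf1r, the receptor for the monocyte and macrophage growth factor CSF-1, had 364, 345 and 348 CPM in NOD.Idd2, against 364, 288 and 275 CPM in NOD, with overlapping groups (log2 0.21, SE 0.088, adjusted p = 0.391). F13a1 and Cd14 had log2 fold changes of 0.52 (adjusted p = 0.429) and 0.25 (adjusted p = 0.728). Ly6c2, a defining gene of classical monocytes, had one of -0.21, with 5 to 23 counts per NOD.Idd2 library and 11 to 25 counts per NOD library. In both Clec10a and Ccr2 the second NOD library was the lowest and the first the highest. Cd209a had the reverse order in NOD, with 287, 359 and 339 CPM, and Csf1r was lowest in the third NOD library. The macrophage sum over 11 genes was 384 ± 15.7 CPM in NOD.Idd2 and 400 ± 48.9 CPM in NOD, most of it Adgre1 (260 ± 8.24 and 278 ± 55.4 CPM). Vcam1, the next highest, had 43.5, 47.3 and 34.9 CPM in NOD.Idd2, against 35.1, 36.8 and 41.3 CPM in NOD, and overlapped. The sum of 10 endothelial and platelet markers was 145 to 148 CPM in NOD.Idd2 and 163 to 167 CPM in NOD, beside the Esam values. Pecam1, which leukocytes also express, made up most of it. Kdr, the next highest, was at 7.05 to 9.76 CPM in NOD.Idd2 and 6.86 to 12.9 CPM in NOD, and the endothelial gene Cdh5 had 1.73 to 2.16 CPM in NOD.Idd2 and 2.12 to 2.46 CPM in NOD. Other lists had higher median log2 fold changes than the monocyte genes. These were natural killer cell (0.351, 7 of 7 tested genes above 0), T cell (0.26, 11 of 12), neutrophil (0.414, 5 of 5) and plasmacytoid genes (0.161, 5 of 7). Macrophage (-0.0261, 4 of 9), B cell (-0.281, 3 of 10) and endothelial and platelet genes (-0.204, 1 of 7) had medians below 0. Medians and sums could part: the B cell sum was 644 to 1177 CPM in NOD.Idd2 and 619.5 to 817 CPM in NOD. The natural killer cell sum was 153 to 163 CPM in NOD.Idd2 and 140 to 173 CPM in NOD. Both sums overlapped between strains, as did the T cell, neutrophil and plasmacytoid sums. The part of these other cells in the marker differences was not tested.

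Scaling each marker to Sirpa within its own library gives a measure that does not depend on library scaling. Per 1000 Sirpa counts, Mgl2 had 38.7, 43.0 and 36.7 counts in NOD.Idd2, against 25.4, 23.3 and 27.9 in NOD. Clec10a had 39.4, 42.9 and 38.3 in NOD.Idd2, against 32.5, 19.6 and 29.1 in NOD. Cd209a had 349, 371 and 323 in NOD.Idd2, against 236, 288 and 311 in NOD. On this scale too the 3 lectins did not overlap between strains. Nor did Itgam, with 40.6, 46.7 and 42.2 in NOD.Idd2, against 37.7, 34.5 and 35.9 in NOD. Sirpa itself differed little between strains, so this scale and CPM are not independent. The share of all genes without overlap was not computed on this scale. Esam had 52.8, 48.5 and 52.8 in NOD.Idd2, against 52.3, 56.8 and 63.9 in NOD, so its groups overlapped on this scale.

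In B cells none of the 9 markers was called between the strains. Of the 9, 6 had enough counts to be tested, and over all 15011 genes tested there 0.160% were called by edgeR's quasi-likelihood test. That test did not pair libraries by replicate number. DESeq2 also called 0 of the 6, and 0 of the 6 passed an unadjusted p of 0.05 in the edgeR test. Clec4a4, Mgl2 and Esam were left out by the filter, with 13, 4 and 19 counts over the 3 NOD.Idd2 libraries, and 10, 5 and 16 counts over the 3 NOD libraries. With so few counts a strain difference of these 3 genes in B cells was not detectable at this depth.

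Sirpa was at 28.0 to 32.2 CPM in NOD.Idd2 B cells and at 29.3 to 32.9 CPM in NOD B cells (log2 -0.017, SE 0.071). Notch2, which B cells need to become marginal zone B cells, had 652, 651 and 718 CPM in NOD.Idd2, against 688, 626 and 701 CPM in NOD (log2 0.0014, SE 0.063). Both genes overlapped between strains. Cd209a was at 1.40 to 2.27 CPM in NOD.Idd2 and 1.47 to 2.18 CPM in NOD (log2 0.065, SE 0.24), and Itgam at 1.68 to 1.89 CPM in NOD.Idd2 and 1.64 to 2.40 CPM in NOD (log2 -0.19, SE 0.18).

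Cd4 varied among the B cell libraries, with 10.03, 2.96 and 5.50 CPM in NOD.Idd2, against 4.61, 6.53 and 5.01 CPM in NOD (log2 0.19, SE 0.41). The T cell receptor subunit gene Cd3e varied with it. There were 1.05, 1.0 and 0.857 Cd4 counts per Cd3e count in the NOD.Idd2 B cell libraries, and 0.815, 0.879 and 0.802 in the NOD B cell libraries. In dendritic cells the same ratio was 79.5, 67.2 and 70.1 in NOD.Idd2, and 57.8, 134 and 58.3 in NOD. The summed level of 12 T cell markers in B cells was 93.8 to 157 CPM in NOD.Idd2 and 107 to 122 CPM in NOD. The highest of them were Lck, a kinase of T cell receptor signalling (64.3 to 71.7 CPM in NOD.Idd2 and 61.6 to 75.2 CPM in NOD), and Cd5 (6.34 to 8.85 and 6.48 to 7.57 CPM). Lck varied far less between the NOD.Idd2 B cell libraries than Cd3e, which had 387, 125 and 279 counts there. The part of T cell transcripts in the Cd4 level was not tested.

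**Figure D2:**
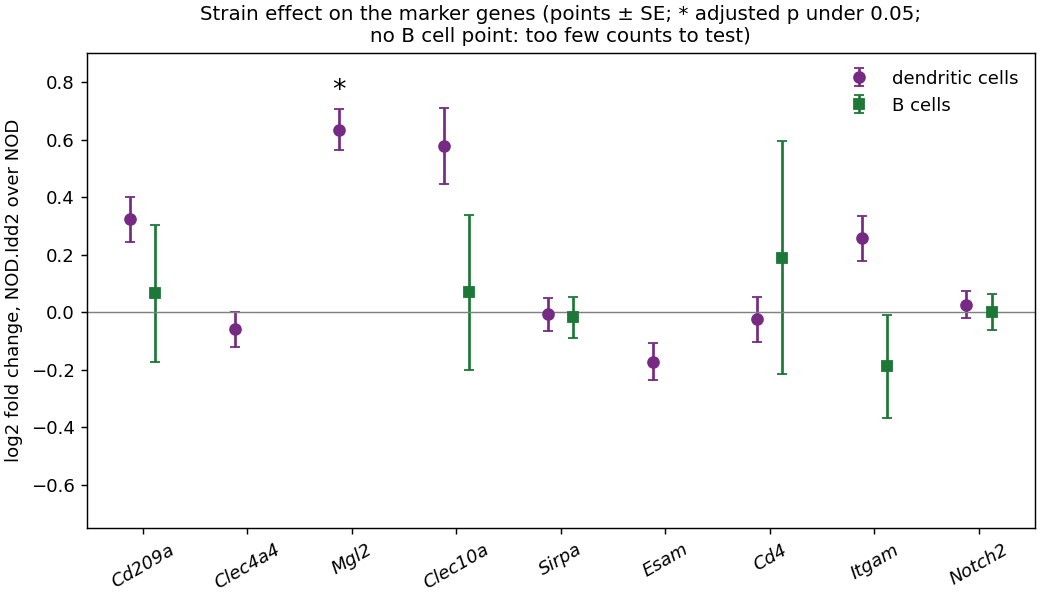
Log2 fold change of NOD.Idd2 over NOD for each marker gene, with its SE, in dendritic cells (purple circles) and B cells (green squares). The star marks Mgl2 at 0.63, the only marker with an adjusted p under 0.05, and Clec4a4, Mgl2 and Esam have no B cell point because too few counts were left to test.

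Whether the strain effect itself differed between the cell types was tested as an interaction in a fit of all 12 libraries. No marker passed, where 0.109% of 16588 genes did in edgeR's quasi-likelihood test. DESeq2 called none of the 9 either. Itgam alone had an unadjusted p under 0.05 in the edgeR test. Its strain effect was 0.43 log2 units higher in dendritic cells than in B cells (SE 0.17, adjusted p = 0.540). For Mgl2 the difference was 0.87 with an SE of 0.82 (adjusted p = 0.841), with 4 and 5 Mgl2 counts over the 3 NOD.Idd2 and the 3 NOD B cell libraries. The Mgl2 difference between strains is therefore not shown to be particular to dendritic cells.

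Between the cell types, 8 of the 9 markers were higher in dendritic cells than in B cells, and Notch2 was lower, in both strains. Over all 16588 genes, 75.7% were called in NOD.Idd2 and 76.4% in NOD. In them 36.7% were higher and 38.9% lower in NOD.Idd2 dendritic cells than in NOD.Idd2 B cells, and 37.7% higher and 38.7% lower in NOD dendritic cells than in NOD B cells. Clec4a4, Mgl2 and Esam passed the filter on low counts only through the dendritic cell libraries and so had to differ. Among the other genes, Cd209a was at 406 ± 32.1 CPM in NOD.Idd2 dendritic cells and 1.86 ± 0.438 CPM in NOD.Idd2 B cells. The log2 fold change was 7.77 (SE 0.17) in NOD.Idd2 and 7.54 (SE 0.17) in NOD. Clec10a followed at 7.13 in NOD.Idd2 and 6.64 in NOD, Cd4 at 5.89 and 6.13, Sirpa at 5.25 and 5.26, and Itgam at 4.83 and 4.40, with adjusted p-values of 2.9e-09 or less in the edgeR test.

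Notch2 was the exception. It had 549 ± 15.8 CPM in NOD.Idd2 dendritic cells and 674 ± 38.1 CPM in NOD.Idd2 B cells (log2 -0.30, SE 0.054, adjusted p = 0.000285 in the edgeR test). In NOD it had 545 ± 13.3 CPM in dendritic cells and 672 ± 40.1 CPM in B cells (log2 -0.30, SE 0.054, adjusted p = 0.000230). The lowest B cell library, at 626 CPM, was above the highest dendritic cell library, at 566 CPM.

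**Figure D3:**
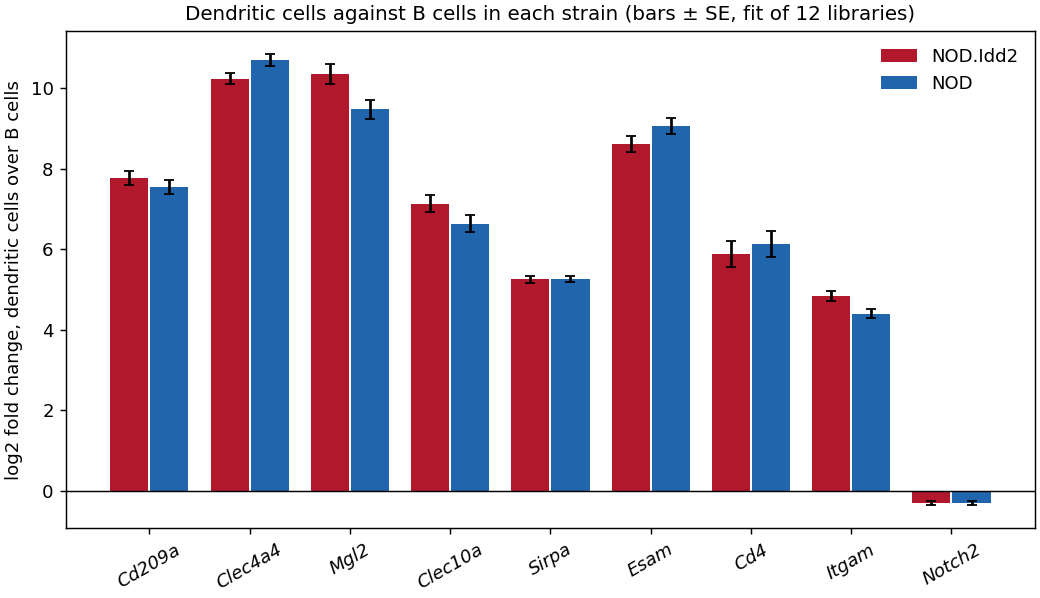
Log2 fold change of dendritic cells over B cells for each marker gene, NOD.Idd2 left of NOD, bars with their SE from the fit of 12 libraries. Bars of 8 genes rise above 0, up to 10.70 for Clec4a4 in NOD, a gene with 10 counts over the 3 NOD B cell libraries, and Notch2 lies at -0.30 in both strains.

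Levels of different genes were compared per kilobase of annotated exon. In NOD.Idd2 dendritic cells the order was Cd209a at 256 ± 20.3 CPM per kb, Sirpa at 238 ± 3.11, Clec4a4 at 165 ± 7.10, Cd4 at 90.3 ± 4.95, Notch2 at 50.9 ± 1.47, Mgl2 at 22.0 ± 1.98, Esam at 20.9 ± 0.903, Clec10a at 16.2 ± 1.09 and Itgam at 10 ± 0.788. In NOD dendritic cells Sirpa was at 242 ± 17.3 CPM per kb, Cd209a at 207 ± 23.5, Clec4a4 at 174 ± 11.9, Cd4 at 93.1 ± 11.8, Notch2 at 50.6 ± 1.25, Esam at 23.8 ± 1.39, Mgl2 at 14.4 ± 0.424, Clec10a at 11 ± 2.57 and Itgam at 8.52 ± 0.680. Cd209a and Sirpa overlapped in each strain, and so did Mgl2 and Esam in NOD.Idd2 and Cd209a and Clec4a4 in NOD. In NOD all 3 Esam libraries were above all 3 Mgl2 libraries. Clec10a in NOD, at 8.49 to 13.6 CPM per kb, overlapped with its neighbour in the order, Itgam, at 7.80 to 9.16 CPM per kb. In B cells the order began with Notch2, at 62.5 ± 3.56 CPM per kb in NOD.Idd2 and 62.3 ± 3.72 in NOD, followed by Sirpa at 6.24 ± 0.467 and 6.29 ± 0.373. All other markers were below 2 CPM per kb there in the group means.

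Profiles most like each marker over the 12 libraries were found by the root-mean-square difference of log2 CPM, each gene centred on its own mean. The nearest were Fut4 for Cd209a (0.241), Itgax for Clec4a4 (0.285), Arhgap22 for Mgl2 (0.285) and Bahcc1 for Clec10a (0.189). They were Amz1 for Sirpa (0.0747), Shtn1 for Esam (0.296), Hnrnpll for Cd4 (0.249), Dram1 for Itgam (0.141) and Prrc2b for Notch2 (0.0273). Second nearest were Six3 for Cd209a (0.244), Kit for Clec4a4 (0.297), Shtn1 for Mgl2 (0.317), Il13ra1 for Clec10a (0.197), Otulinl for Sirpa (0.094), Procr for Esam (0.343), Klrd1 for Cd4 (0.252), Cysltr1 for Itgam (0.148) and Garre1 for Notch2 (0.0364). All these values rest on the same 12 libraries, in which the 2 cell types are the main division.

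Beyond the 9 markers, 13 other genes of type 2 cells were read in dendritic cells. Of these, 2 rose (Ltb and Cd209d) and 2 fell (Dtx1 and Jaml) in NOD.Idd2. Over all genes tested 0.665% were called higher and 0.623% lower. As the 13 genes were chosen with earlier results of these data known, setting them beside these shares is no test. Of the 13, 8 had a log2 fold change above 0, with a median of 0.092. Ltb, the membrane lymphotoxin that supports splenic type 2 cells, averaged 263 ± 12.0 CPM in NOD.Idd2 and 201 ± 23.1 CPM in NOD (log2 0.40, SE 0.074, adjusted p = 0.0198 in the edgeR test). Dtx1, a Notch target and regulator, was lower at 241 ± 9.20 CPM in NOD.Idd2 and 292 ± 3.13 CPM in NOD (log2 -0.26, SE 0.048, adjusted p = 0.0208). Jaml, an adhesion molecule gene at chr9:45079183-45108534, was lower at 186 ± 6.83 CPM in NOD.Idd2 and 241 ± 28.7 CPM in NOD (log2 -0.36, SE 0.075, adjusted p = 0.0411). Irf4 and Klf4, transcription factors that type 2 cells need, had log2 fold changes of 0.039 and 0.13, Tbx21, which encodes the transcription factor T-bet, had one of -0.27, and none of the 3 was called. With each library left out in turn, Dtx1, Ltb and Jaml each lost the call without NOD replicate 2 or any one NOD.Idd2 library, and Jaml also without NOD replicate 3, with adjusted p-values up to 0.208. In the fit of all 12 libraries Jaml was not called (adjusted p = 0.117).

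Among the lectin neighbours of Cd209a on chromosome 8, 3 of 4 tested genes rose, where 0.665% of all genes tested were called higher. This list was chosen with earlier results of these data known, so setting its calls beside that share is no test. None of the 3 was called in a fit of all 12 libraries, at adjusted p-values of 0.0678 for Cd209c, 0.363 for Cd209d and 0.114 for Cd209e. Cd209c had 30.4, 29.5 and 25.8 CPM in NOD.Idd2, against 22.2, 18.1 and 18.5 CPM in NOD (log2 0.57, SE 0.091, adjusted p = 0.00909 in the edgeR test). Cd209d, which is also on the list of other type 2 genes, had 19.5, 18.1 and 20 CPM in NOD.Idd2, against 13.4, 10.9 and 11.9 CPM in NOD (log2 0.68, SE 0.099, adjusted p = 0.00542). Cd209e had 11, 8.06 and 10.7 CPM in NOD.Idd2, against 5.25, 4.66 and 5.82 CPM in NOD (log2 0.91, SE 0.16, adjusted p = 0.0144). In all 3 the lowest NOD.Idd2 library was above the highest NOD library. The fourth, Cd209b, which encodes SIGN-R1 of marginal zone macrophages, overlapped between strains (log2 0.17, adjusted p = 0.555). With 1 library left out the calls of Cd209c were lost on removal of NOD.Idd2 replicate 1 or 2, that of Cd209d without NOD.Idd2 replicate 1, and that of Cd209e on removal of NOD replicate 2, NOD.Idd2 replicate 1 or NOD.Idd2 replicate 3, with adjusted p-values up to 0.102 and the same direction throughout.

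The other relatives of the markers, also chosen with earlier results of these data known, gave few calls. They are to be read against the 1.29% called over all genes tested. None of 8 lectin genes of the DCIR and dectin-2 group beside Clec4a4 was called, nor Cd47 or any of 3 Sirpb1 genes of the SIRP family, nor any of 4 other subunits of beta 2 integrins. Of 24 tested genes of the Notch pathway only Dtx1 was called, and Rbpj, which encodes the DNA-binding partner of Notch, had a log2 fold change of 0.0015. Notch1 (0.52, adjusted p = 0.173) and Notch3 (0.78, adjusted p = 0.199) had larger values that were not called. Of 12 type 1 markers, 1 fell: Cadm1, an adhesion molecule gene, had 51.7, 57.9 and 51.3 CPM in NOD.Idd2, against 92.8, 75.4 and 95.7 CPM in NOD (log2 -0.69, SE 0.087, adjusted p = 0.00212 in the edgeR test). Cadm1 is at chr9:47530173-47857637, on the chromosome of the Idd2 locus. None of 10 general dendritic cell markers was called.

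**Figure D4:**
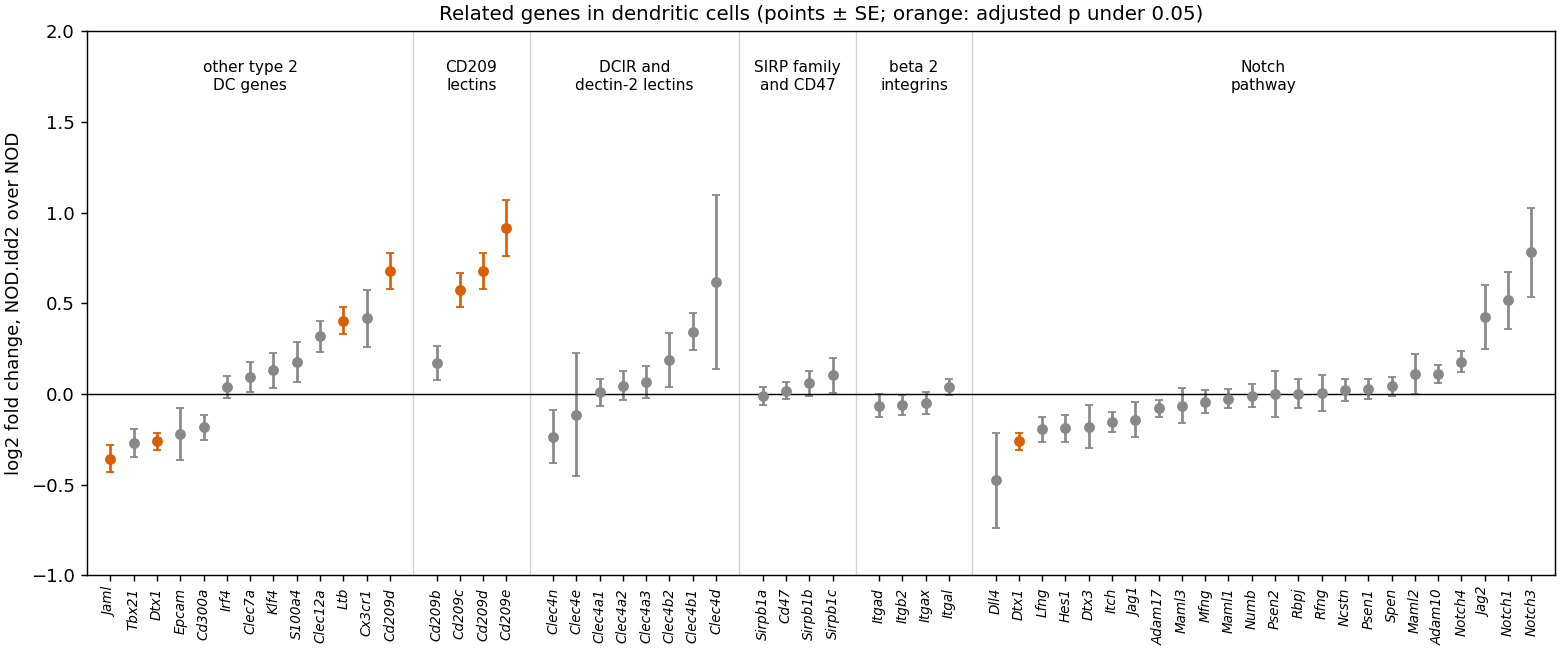
Log2 fold change of NOD.Idd2 over NOD in dendritic cells for genes related to the markers, with their SE, in 6 lists and in order of size. Orange points have an adjusted p under 0.05, among them Ltb at 0.40 and 3 of the 4 CD209 lectins at 0.57 to 0.91; the DCIR, SIRP and integrin lists have none.

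In B cells these lists held no call in the fit without a replicate block. Same-numbered B cell libraries deviated together. With that number as a block, Ltb (log2 0.32, adjusted p = 0.000273) and the inhibitory lectin gene Clec12a (log2 0.82, adjusted p = 0.00111) were higher in NOD.Idd2 B cells, while the adhesion molecule gene Cadm1 was lower (log2 -1.40, adjusted p = 0.0464). Over all 15011 genes tested in B cells, 156 were called with this block, against which these calls are to be read. Under the same block, 3 genes of other cell types passed in B cells. The macrophage gene Adgre1 was higher (log2 0.46, adjusted p = 0.00145), and Chil3 of monocytes and Gzma of natural killer cells were lower. Ltb is at chr17:35194439-35196320. It had 440, 421 and 453 CPM in NOD.Idd2 B cells, against 353, 327 and 368 CPM in NOD B cells, and its strain effect did not differ detectably between the cell types (difference 0.061, SE 0.11).

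Esam is the marker on the chromosome of the Idd2 locus. Its neighbours were read from a chosen list of 10 genes, and genes outside the list may lie nearer. Earlier results of these data were known when the list was chosen, so setting its calls beside all genes is no test. Of the 6 genes of that list whose starts are nearest to Esam, 4 had enough counts to be tested in dendritic cells. Of these 1 was called, where 1.29% of all genes tested were. Vsig2, which encodes another immunoglobulin-type surface protein and starts 11.2 kb beyond the Esam start, had 5.77, 5.16 and 4.43 CPM in NOD.Idd2, against 7.79, 8.29 and 9.52 CPM in NOD (log2 -0.70, SE 0.14, adjusted p = 0.0344 in the edgeR test). Both Esam and Vsig2 were thus lower in each NOD.Idd2 library than in each NOD library, Esam without passing the test, and the Vsig2 call was lost in 5 of the 6 fits that left out 1 library and in the fit of all 12 (adjusted p = 0.231). Nrgn (log2 -0.040), Msantd2 (0.11) and Tbrg1 (-0.083), which start 24.8 to 129.2 kb from Esam, were not called, and Robo3 and Robo4 had at most 4 counts in any dendritic cell library. Slc37a2, a sugar phosphate transporter gene 272.3 kb from Esam, rose in both cell types, by 1.38 in dendritic cells (SE 0.12, adjusted p = 0.000136) and by 1.65 in B cells (SE 0.095, adjusted p = 0.00163). Ccdc15, 179.6 kb from Esam, was not called in dendritic cells (log2 0.58, adjusted p = 0.114), and in B cells only with the replicate block (log2 0.36, adjusted p = 0.0381).

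**Figure D5:**
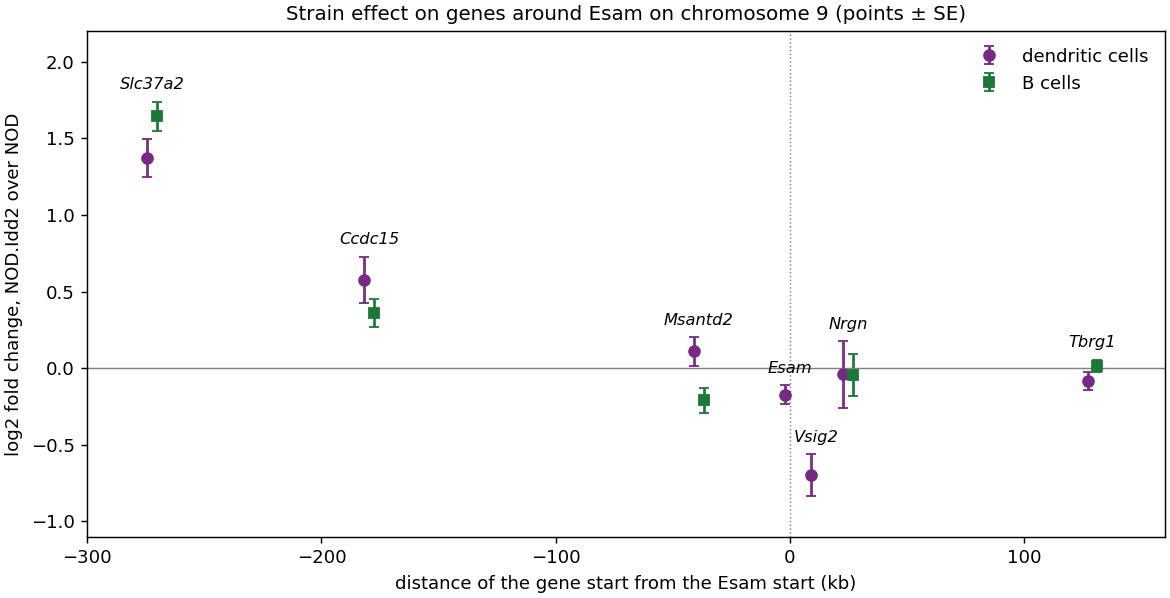
Log2 fold change of NOD.Idd2 over NOD for Esam and its tested neighbours, with their SE, against the distance of each gene start from the Esam start in kb, in dendritic cells (purple circles) and B cells (green squares). Slc37a2 lies at 1.38 and 1.65, Vsig2 at -0.70 and Esam at -0.17 in dendritic cells.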

How the data were processed

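RNA was extracted with Trizol and made into poly(A) libraries with the KAPA HyperPrep kit, per the labels' protocols. STAR (version given as 0.12.2) and the build GRCm38 are named in the submitters' processing notes. The sources used here do not give the counting tool, the annotation or the use of strand. What the authors deposited is raw counts for 28188 gene symbols, which were used, and a table scaled by size factors, which was not used.

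Groups and replicate numbers came from the sample titles. Each strain comparison was edgeR 4.0.16's quasi-likelihood test (R 4.3.3) on the 6 libraries of a cell type, with TMM scaling, filterByExpr (minimum count 10, minimum total 15) and Benjamini-Hochberg adjustment over all genes at 0.05. Cell type contrasts and the interaction came from 1 fit of all 12 libraries in 4 groups. Alternatives were DESeq2 1.42.0, RLE size factors, no filter, each library left out, another set of libraries in the fit and the replicate number as a block. Leaving out both replicate 3 B cell libraries was added after seeing the data. The main edgeR fit of each comparison was run on simulated counts with known changes and the same spread setting for all genes. The alternatives were not run on simulated counts.

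Deviations from the group means, compared between same-numbered B cell libraries, correlated at 0.519, 0.326 and 0.753, so the numbers were taken to pair them. Numbers 1 and 2 fitted about as well when crossed, at 0.395 and 0.355, and the labels state no pairing. In dendritic cells the correlations were 0.012, 0.0141 and 0.0612, and the numbers were not taken to pair those libraries.

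All 9 markers matched 1 gene of GENCODE M21, which gave positions, exon lengths and the 50-base windows. Upstream sequences are RefSeq's, for 4 of the 9. The members and the gene lists were chosen with earlier results of these data known. By rule, all markers are named, with called genes of the other lists. So are the 2 highest genes of each other cell type whose level is discussed and the genes of most alike profile. For Esam these are joined by the 6 genes nearest to it within a chosen list of its neighbours. Other genes are list members given as values, chosen after their values were seen. A result is not reported here, for a reason unrelated to its value.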

Additional observations from a re-analysis of the deposited data

How the results depend on the processing

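In dendritic cells Mgl2 was higher in NOD.Idd2 and called under every alternative run, with an adjusted p of 0.0410 in the fit of all 12 libraries and of 0.000889 to 0.00888 when 1 library was left out. The number of markers called was 3 with DESeq2, 4 without the filter and 1 to 2 with 1 library left out. Cd209a and Clec10a were the added calls, at adjusted p-values of 0.00314 and 0.000693 with DESeq2, and Itgam joined them without the filter at 0.0199. The number of all genes called there, 186, became 296 with DESeq2, 700 without the filter, 94 in the fit of all 12 libraries and 63 to 332 with 1 library left out. In the fit of all 12 libraries Cd209c, Cd209d, Cd209e, Jaml and Vsig2 were not called (adjusted p-values 0.0678, 0.363, 0.114, 0.117 and 0.231). The cause was not tested.

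In B cells the markers called stayed at 0 in every alternative. All genes called, 24, became 122 with DESeq2, 42 in the fit of all 12 libraries, 46 without both replicate 3 libraries and 13 to 18 with 1 library left out. The interaction, with 18 genes called, gave 114 with DESeq2, 33 without the filter and 7 to 19 with 1 library left out. Between cell types all 9 markers kept their call and direction in every alternative. Of these, Clec4a4, Mgl2 and Esam passed the main filter only through dendritic cells and so had to differ. Over all genes tested 75.7% were called in NOD.Idd2 and 76.4% in NOD in the main fit.

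With replicate number as a block, 3 markers were called in dendritic cells (Mgl2, with Cd209a at an adjusted p of 0.0362 and Clec10a at 0.0443), among 214 of all 14441 genes there, with 156 genes in B cells and 56 in the interaction. In dendritic cells Vsig2 was not called under the block (0.0575). The block changed no other marker's call.

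Markers near 0, or with a large SE as for the Mgl2 interaction, changed sign. In B cells Notch2 was at -0.0024 with DESeq2, -0.0024 with RLE factors and -0.0025 without the filter, and without both replicate 3 libraries Cd209a was at -0.081, Sirpa at 0.0015 and Notch2 at -0.022. The interaction of Sirpa was 0.010 with DESeq2, 0.010 with RLE factors and 0.013 without the filter. With 1 library left out the ranges in dendritic cells were -0.067 to 0.032 for Sirpa, -0.091 to 0.0014 for Clec4a4 and -0.10 to 0.080 for Cd4. In B cells they were -0.098 to 0.24 for Cd209a, -0.061 to 0.18 for Clec10a, -0.35 to 0.53 for Cd4, -0.055 to 0.039 for Sirpa and -0.053 to 0.032 for Notch2. For the interaction they were -0.068 to 0.044 for Sirpa, -0.025 to 0.063 for Notch2, -0.57 to 0.30 for Cd4, -0.68 to 0.036 for Clec4a4, -0.80 to 0.36 for Esam and -0.56 to 1.41 for Mgl2. In B cells depth limits Clec4a4, Mgl2 and Esam, with at most 19 counts per group.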
